A study of Rattus norvegicus with 5 samples.

Results

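The neurotrophin transcripts of fetal hypothalamic cells were followed across 3 populations: the ligands *Bdnf* and *Ntf3*, the tyrosine kinase receptors *Ntrk2* and *Ntrk3*, and the p75 receptor *Ngfr*. A probe set, the group of short oligonucleotides that reads a transcript on the array, was taken when its only gene symbol in the platform annotation was that of these 5 genes. This gave 15 of the 8740 non-control probe sets, with 7 for *Bdnf* and 2 for each of the others.

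All cells came from primary cultures of the hypothalamus of Wistar rat embryos at embryonic day 17. GFP+ cells had been transfected, 24 h after seeding, with green fluorescent protein (GFP) under the minimal promoter of *Trh*, the thyrotropin-releasing hormone (TRH) gene, and were sorted by fluorescence 48 h later. GFP+/- cells had the same transfection and went through the sorter without selection, so that labelled and unlabelled cells stayed mixed, and NT cells were never transfected. The GFP+ RNA pooled 6 experiments and was read on 2 arrays, the GFP+/- RNA pooled 3 and was read on 2 arrays, and the NT RNA pooled 3 and was read on 1 array. The GFP label marks cells in which a short plasmid promoter was active, so the sort is a model of TRH neurons and not a direct selection for the hormone. The NT cells differ from both other populations in transfection, and the sources used here do not say that they passed the sorter.

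Neurotrophins are secreted growth factors made as larger precursors, which proteases such as furin and plasmin cut to the mature form. Mature brain-derived neurotrophic factor (BDNF, from *Bdnf*) binds the receptor TrkB (from *Ntrk2*), and neurotrophin-3 (from *Ntf3*) prefers TrkC (from *Ntrk3*), while p75 (from *Ngfr*) binds every neurotrophin and, with sortilin, the uncut precursors. Trk receptors signal through Ras and MAP kinases, PI3 kinase and phospholipase C-gamma toward survival, growth and CREB-driven transcription, and in the hypothalamus BDNF and TrkB are known for their part in the control of feeding and body weight.

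*Bdnf* has several alternative first exons, each with its own promoter, and CREB, a transcription factor switched on by neuronal activity and by TrkB itself, is known to act on it. The RefSeq promoter table held 6 windows for *Bdnf* and 3 for *Ntf3*, each of 300 bases, with 250 before and 50 after a transcript start (build GRCr8). The CRE core TGACGT, the letters that CREB reads, was searched on both strands and lay in 1 of the 6 *Bdnf* windows, in none of the 3 *Ntf3* windows and in 7.94% of all 33469 windows of the table. Some windows of a gene overlap and are not independent: *Ntf3* windows begin at 160670573 and 160670574, and *Bdnf* windows at 116639552 and 116639608. The CRE-bearing *Bdnf* window (chr3:116637608-116637907, plus strand) is shown first because it is the only window of either ligand with the motif, and the first *Ntf3* window (chr4:160670574-160670873, minus strand) is shown because *Ntf3* lay lower in GFP+ cells where *Bdnf* did not. Capitals mark the CRE core, which reads ACGTCA on the printed strand and begins 36 bases before the start.
Bdnf: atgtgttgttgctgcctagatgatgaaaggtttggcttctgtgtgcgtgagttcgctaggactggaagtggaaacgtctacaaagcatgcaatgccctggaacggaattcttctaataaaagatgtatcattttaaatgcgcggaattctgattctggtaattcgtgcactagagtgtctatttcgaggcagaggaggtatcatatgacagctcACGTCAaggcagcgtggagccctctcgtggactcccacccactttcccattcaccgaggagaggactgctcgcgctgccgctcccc
Ntf3: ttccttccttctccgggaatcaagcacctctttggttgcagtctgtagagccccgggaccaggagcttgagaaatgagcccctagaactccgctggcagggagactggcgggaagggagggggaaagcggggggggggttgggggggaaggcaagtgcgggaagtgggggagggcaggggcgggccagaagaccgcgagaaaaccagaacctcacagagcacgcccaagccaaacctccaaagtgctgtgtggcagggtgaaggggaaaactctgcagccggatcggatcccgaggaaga

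The *Ntf3* window was richer in G and C (62.3%) than the *Bdnf* window (50.0%), and the median of all windows was 51.7%. A match of letters is a description and not a binding site, its absence says only that these letters are not in the window, and the files do not say which *Bdnf* transcript start each probe set reads.

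The values are MAS 5.0 signals, a linear intensity that the authors' software gave per probe set, scaled to a common level on each array (a mean of about 501 after 2% was trimmed at either end). Differences were tested with limma on log2 signals in a single fit of all 5 arrays. An adjusted p is a Benjamini-Hochberg value taken across the 8740 probe sets, and a difference passed when it was under 0.05. Folds are ratios of averaged signals, and log2 differences are those of the fit. Both arrays of a population held aliquots of a common RNA pool by the study's methods, while the labels name them biological replicates. A p-value here therefore covers the spread from array to array and no more, and the lone NT array was taken to vary like the others. With 2 arrays against 2, an exact permutation test could not go below a two-sided p of 0.333, so none was run. Of the 15 probe sets, 6 were among the brightest 41% (mean signal above 175.3 over 5 arrays). The GFP+ arrays differed from each other by more than 2-fold in 15.5% of all probe sets and in 1 of the 15, and the GFP+/- arrays did so in 13.2% of all and in 3 of the 15. The ratio of 3' to 5' signal of the *Gapdh* control, a measure of RNA or target length, was 14.6 and 17.6 on the GFP+ arrays, 12.7 and 14.2 on the GFP+/- arrays and 5.45 on NT. The same ratio of beta-actin was 22.9 and 18.7 on the GFP+ arrays, 31.4 and 14.4 on the GFP+/- arrays and 10.9 on NT. By that control the GFP+/- arrays lay on either side of the GFP+ arrays. The part of target length in any difference between populations was not tested.

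**Figure D1:**
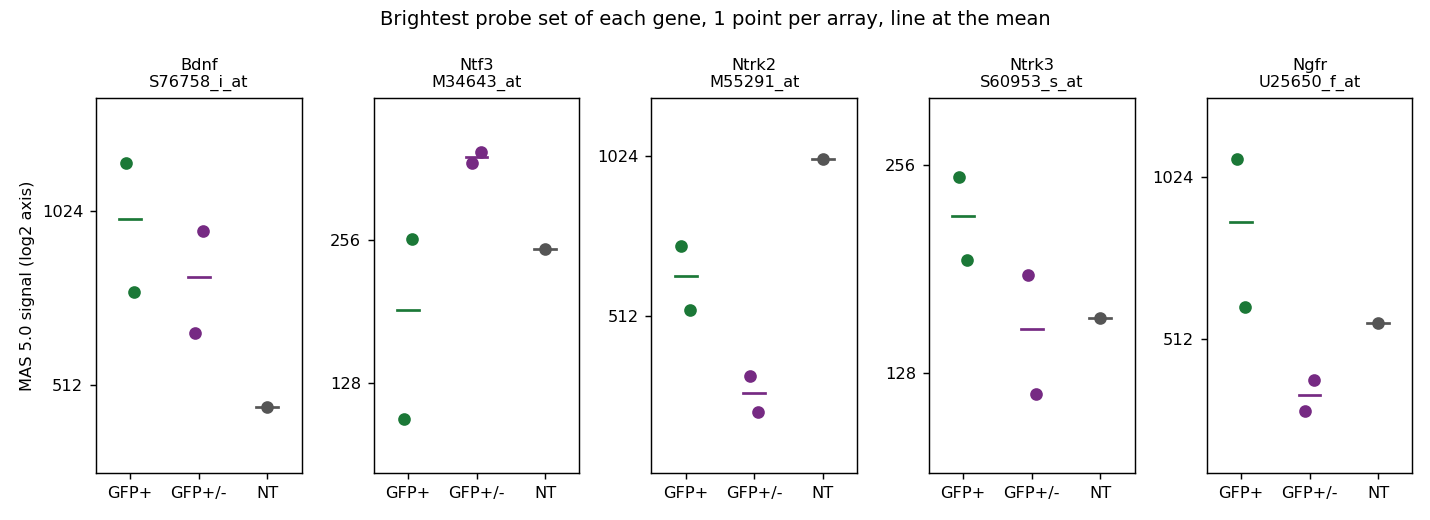
MAS 5.0 signal (log2 axis) of the brightest probe set of each of the 5 genes in GFP+ (2 arrays), GFP+/- (2 arrays) and NT cells (1 array), with 1 point per array and a line at the mean. GFP+ points lie above GFP+/- points for Ntrk2, Ntrk3 and Ngfr, below them for Ntf3, and among them for Bdnf.

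*Bdnf* was described by 1 bright and 6 dim probe sets. The bright one (S76758_i_at) had signals of 1240.1 and 742 on the GFP+ arrays, 629 and 945 on the GFP+/- arrays and 467 on the NT array. The GFP+ and GFP+/- arrays overlapped, and all 4 stood above NT. Its mean was 991 ± 352 in GFP+ and 787 ± 223 in GFP+/- cells (SD, n = 2 arrays each), a log2 difference of 0.32 (SE 0.32, 95% interval -0.48 to 1.11, adjusted p = 0.717), and it turned to -0.05 when GFP+ array 1 was left out. Against NT cells the log2 difference was 1.04 in GFP+ (SE 0.39, adjusted p = 0.178) and 0.72 in GFP+/- cells (SE 0.39, adjusted p = 0.338), so neither passed the test. The name of this probe set carries the Affymetrix suffix for a reduced set of probe pairs.

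Of the dim *Bdnf* probe sets, 3 separated the sorted from the unsorted cells and 3 did not. Such a separation was common: both GFP+ arrays lay above both GFP+/- arrays in 30.4% of all probe sets and below them in 15.4%. D10938exon_s_at had 71.0 and 79.6 on the GFP+ arrays, 37.9 and 28.9 on the GFP+/- arrays and 70.0 on NT. Its ratio of averaged signals was 2.26-fold over GFP+/- cells, with a log2 difference of 1.19 (SE 0.40, adjusted p = 0.288). S71196mRNA_s_at had 93.3 and 68.3 on the GFP+ arrays, 55.9 and 26.9 on the GFP+/- arrays and 37.3 on NT. X67108_at, close to the bottom of the scale, had 17.2 and 9.0 on the GFP+ arrays, 1.93 and 7.55 on the GFP+/- arrays and 30.4 on NT. In all of these both GFP+ arrays lay above both GFP+/- arrays, yet the adjusted p was 0.444 for S71196mRNA_s_at (log2 difference 1.04, SE 0.51) and 0.413 for X67108_at (log2 difference 1.70, SE 0.79). The last of these moved with the treatment of low signals and with single arrays: it was 0.49 with 16 added to each signal, 0.72 without GFP+/- array 1 and 2.69 without GFP+/- array 2. For S71196mRNA_s_at it was 1.57 without GFP+/- array 1 and 0.51 without GFP+/- array 2.

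The remaining *Bdnf* probe sets overlapped between GFP+ and GFP+/- cells. rc_AI030286_s_at had 161 and 134 on the GFP+ arrays, 131 and 152 on the GFP+/- arrays and 219 on NT. S76799_at had 112 and 182 on the GFP+ arrays, 189 and 175 on the GFP+/- arrays and 106 on NT. These lay on opposite sides of NT, with log2 differences in GFP+ cells of -0.57 for rc_AI030286_s_at (adjusted p = 0.366) and 0.44 for S76799_at (adjusted p = 0.596). S71201mRNA_at had 10.4 and 13.4 on the GFP+ arrays, 8.53 and 11.8 on the GFP+/- arrays and 48.4 on NT, with log2 differences from NT of -2.04 in GFP+ (SE 0.61, adjusted p = 0.107) and -2.27 in GFP+/- cells (SE 0.61, adjusted p = 0.0814). Of the 7 probe sets of this gene, 6 log2 differences of GFP+ from GFP+/- cells lay above 0 and 1 below. None passed, and the median over all probe sets was 0.13. In GFP+ against NT cells 4 lay above 0 and 3 below, with no common direction. A probe set can read a different stretch or transcript form of the gene, and which one it reads is not given in the sources used here.

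*Ntf3* was the ligand whose signals were lower on both GFP+ than on both GFP+/- arrays. Its bright probe set (M34643_at) had 108 and 257 on the GFP+ arrays, 372 and 392 on the GFP+/- arrays and 245 on the NT array. Both GFP+ arrays lay below both GFP+/- arrays, NT fell between the GFP+ arrays, and the GFP+ arrays differed by 2.39-fold from each other, the widest gap among the GFP+ arrays in the 15 probe sets. The means were 182 ± 106 in GFP+ and 382 ± 14.3 in GFP+/- cells (SD, n = 2 each), 2.10-fold lower in GFP+, with a log2 difference of -1.20 (SE 0.42, 95% interval -2.25 to -0.15, adjusted p = 0.307). Without GFP+ array 1 the log2 difference was -0.57, and without GFP+ array 2 it was -1.83.

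The dim *Ntf3* probe set (E03082cds_s_at) leaned the same way. It had 7.41 and 6.50 on the GFP+ arrays, 21.5 and 56.2 on the GFP+/- arrays and 48 on NT. GFP+ cells were below all other arrays, by 5.59-fold against GFP+/- (log2 difference -2.33, SE 0.62, adjusted p = 0.222) and by 6.90-fold against NT cells (log2 difference -2.79, SE 0.76, adjusted p = 0.0861), and with 16 added to each signal these log2 differences shrank to -1.18 and -1.48. GFP+/- and NT cells overlapped for this probe set (log2 difference -0.46, adjusted p = 0.786), and for M34643_at both GFP+/- arrays were above NT (log2 difference 0.64, adjusted p = 0.538). No difference of *Ntf3* passed the adjusted threshold in any of the 3 comparisons.

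*Ntrk2*, which encodes TrkB, the receptor of BDNF, was the only gene of the 5 with a difference past the threshold. M55291_at had 691 and 526 on the GFP+ arrays, 395 and 337 on the GFP+/- arrays and 1010.5 on the NT array. The order NT, GFP+, GFP+/- was kept by every array, with no overlap. GFP+/- cells averaged 366 ± 40.8 (SD, n = 2) against 1010.5 in NT cells, 2.76-fold lower, with a log2 difference of -1.47 (SE 0.26, 95% interval -2.12 to -0.82, adjusted p = 0.0292). This call was lost in each fit with an array left out, at an adjusted p of 0.0529 without GFP+ array 1, 0.0536 without GFP+ array 2, 0.138 without GFP+/- array 1 and 0.151 without GFP+/- array 2, while the log2 difference stayed between -1.58 and -1.35.

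For the sort itself, *Ntrk2* averaged 609 ± 117 in GFP+ against 366 ± 40.8 in GFP+/- cells (SD, n = 2 each), 1.66-fold, with a log2 difference of 0.72 (SE 0.21, 95% interval 0.19 to 1.25, adjusted p = 0.257). Against NT cells GFP+ cells were 1.66-fold lower, with a log2 difference of -0.74 (SE 0.26, 95% interval -1.39 to -0.10, adjusted p = 0.152). The second probe set, M55293_at, showed none of this: it had 34.4 and 43.2 on the GFP+ arrays, 58.5 and 38.8 on the GFP+/- arrays and 49.2 on NT, its log2 difference was -0.31 between GFP+ and GFP+/- cells, and from NT it was -0.35 in GFP+ and -0.05 in GFP+/- cells, the last with an interval from -1.41 to 1.32. TrkB has a catalytic and truncated forms, and which form each probe set reads is not given in the sources used here.

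The summed signal of the neuronal markers had the same order of populations as *Ntrk2*. Over the 14 of 20 listed neuronal markers that had a probe set, it was 29857 and 25932 on the GFP+ arrays, 18315 and 20275 on the GFP+/- arrays and 38215 on NT. Of the 14, 7 were lower in GFP+/- than in NT cells at an adjusted p under 0.05 and none was higher. Over all probe sets, 5.03% were lower and 4.2% higher. Among the 7 were *Nefl*, *Nefm*, *Elavl4* and *Map2*. The median log2 difference of the list was -1.25 against -0.09 over all probe sets, or -0.68 when all probe sets of a gene were averaged. A second *Map2* probe set ran the other way (log2 difference 2.84, adjusted p = 0.013). In GFP+ against GFP+/- cells the median was 0.60 against 0.13 over all, no marker passed the adjusted threshold and 5 were higher at an unadjusted p under 0.05, against 9.15% of all probe sets. Single markers did not all keep the order of the sum. Both GFP+ arrays lay below NT in 8 of the 14 and above it in 5, with a median of -0.62 against 0.06 over all probe sets. With 2 arrays against 1, overlap is rare, at 2 of the 15 probe sets of the 5 genes, so these counts say little. After adjustment 1 marker was higher and 2 were lower, against 4.38% and 4.06% of all probe sets. *Nefm* and *Uchl1* were lower in GFP+ than in NT cells after adjustment, and the neurofilament gene *Nefh* was higher (3.74, adjusted p = 0.0152), with 1224 and 821 on the GFP+ arrays, 46.1 and 85.0 on the GFP+/- arrays and 75.1 on NT. A second, dimmer *Nefh* probe set ran the other way in GFP+ against NT cells without passing (log2 difference -1.28, adjusted p = 0.248). The neuronal markers *Tubb3*, *Stmn2*, *Eno2*, *Dcx*, *Rbfox3* and *Slc17a6* had no probe set of their own. In bulk RNA, fewer cells of a type and less RNA per cell cannot be told apart, and the part of the neuronal share in the *Ntrk2* difference was not tested. Microglial markers, 8 of 10 with a probe set and none of them among the brightest 41%, summed to 968 and 872 on the GFP+ arrays, 569 and 457 on the GFP+/- arrays and 822 on NT. Their median log2 difference in GFP+ against GFP+/- cells was 0.92, with 0 past the adjusted threshold. Without adjustment 4 of the 8 were higher at a p under 0.05, against 9.15% of all probe sets. The part of microglia in the differences of the 5 genes was not tested.

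*Ntrk3*, which encodes TrkC, was only just inside the brightest 41%. S60953_s_at had 246 and 186 on the GFP+ arrays, 177 and 119 on the GFP+/- arrays and 153 on NT. Both GFP+ arrays lay above the other 3, and NT fell between the GFP+/- arrays. The means were 216 ± 42.3 in GFP+ and 148 ± 40.9 in GFP+/- cells (SD, n = 2 each), 1.46-fold, with a log2 difference of 0.56 (SE 0.31, 95% interval -0.22 to 1.34, adjusted p = 0.502). It was 0.36 without GFP+ array 1, 0.85 without GFP+/- array 1 and 0.27 without GFP+/- array 2. GFP+ against NT cells gave 0.48 (SE 0.38, adjusted p = 0.532). S62933_i_at, the dim probe set, had 40.1 and 36.9 on the GFP+ arrays, 29.3 and 37.4 on the GFP+/- arrays and 81.9 on NT. It was highest in NT, with log2 differences from NT of -1.09 in GFP+ (adjusted p = 0.279) and -1.31 in GFP+/- cells (adjusted p = 0.193), while S60953_s_at gave -0.08 in GFP+/- against NT cells (adjusted p = 0.936).

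*Ngfr*, which encodes p75, had 2 bright probe sets that leaned the same way in the sort. U25650_f_at had 1103 and 588 on the GFP+ arrays, 376 and 431 on the GFP+/- arrays and 548 on NT. X05137_at had 411 and 561 on the GFP+ arrays, 349 and 331 on the GFP+/- arrays and 423 on NT. On both, each GFP+ array lay above each GFP+/- array, but GFP+ array 1 was the higher of the GFP+ arrays on U25650_f_at and the lower on X05137_at. The means of U25650_f_at were 846 ± 364 in GFP+ and 404 ± 38.7 in GFP+/- cells (SD, n = 2 each), 2.09-fold, with a log2 difference of 1.00 (SE 0.32, 95% interval 0.20 to 1.79, adjusted p = 0.283), which was 0.55 without GFP+ array 1. For X05137_at they were 486 ± 106 and 339.8 ± 12.4 (SD, n = 2 each), 1.43-fold, with a log2 difference of 0.50 (SE 0.22, 95% interval -0.05 to 1.05, adjusted p = 0.391).

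Against NT cells, no difference of either *Ngfr* probe set passed the adjusted threshold. On U25650_f_at NT lay below both GFP+ arrays and above both GFP+/- arrays, with log2 differences of 0.56 in GFP+ (SE 0.39, adjusted p = 0.476) and -0.44 in GFP+/- cells (SE 0.39, adjusted p = 0.577). On X05137_at NT fell between the GFP+ arrays and above both GFP+/- arrays, with 0.18 in GFP+ (SE 0.27, adjusted p = 0.761) and -0.32 in GFP+/- cells (SE 0.27, adjusted p = 0.565). U25650_f_at carries the Affymetrix suffix for a sequence family, whose probes can bind related transcripts.

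**Figure D2:**
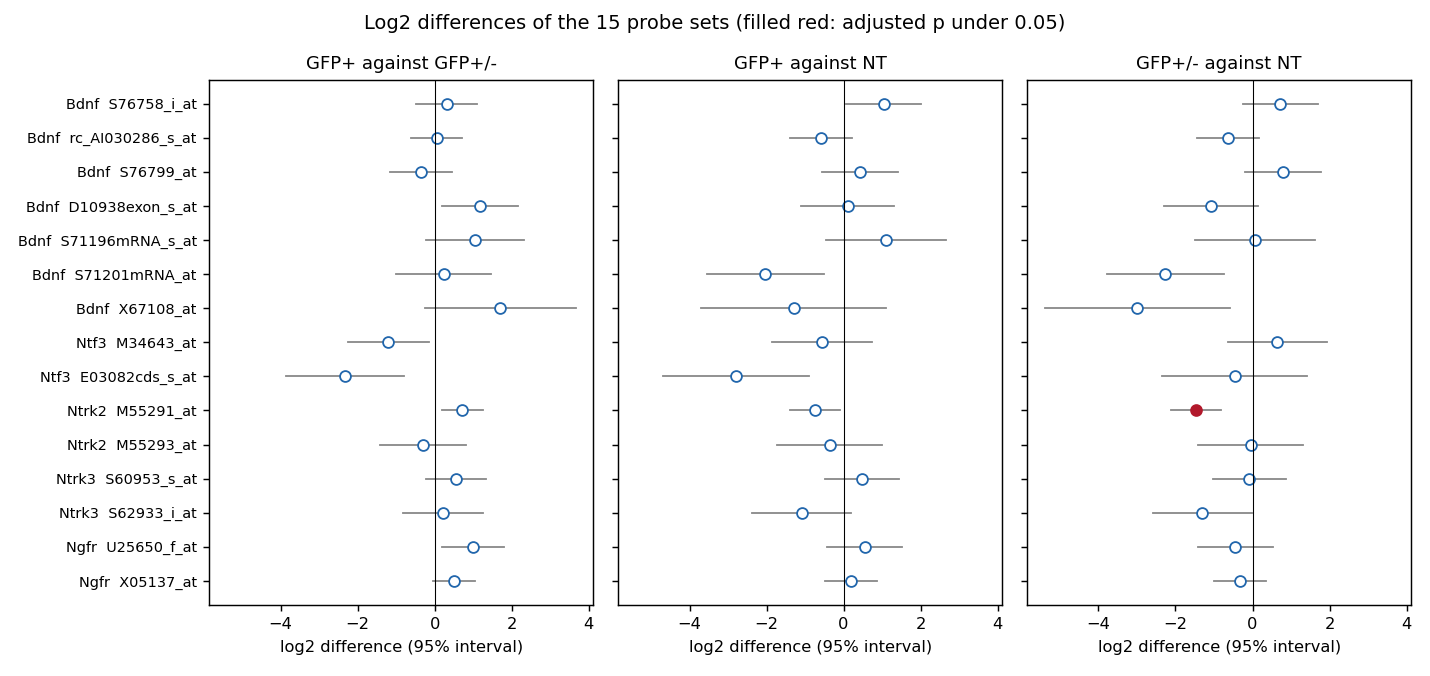
Log2 difference of each of the 15 probe sets with its 95% interval from limma, for GFP+ against GFP+/- (left), GFP+ against NT (middle) and GFP+/- against NT cells (right). The filled red point, Ntrk2 M55291_at in GFP+/- against NT cells (-1.47), is the only one with an adjusted p under 0.05.

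Counted together, the 15 probe sets lay beyond the unadjusted or 2-fold limits somewhat more often than all probe sets in GFP+ against GFP+/- cells, at counts of 2 to 5 that come from 5 genes and are not independent. For GFP+ against GFP+/- cells, limma called 0 of the 15 after adjustment, as it called 0.0% of all probe sets higher and 0.0% lower. Without adjustment, p was under 0.05 for 5 of the 15, 3 higher (D10938exon_s_at, M55291_at and U25650_f_at) and 2 lower (both of *Ntf3*), against 9.15% of all probe sets higher, 4.75% lower and 13.9% in either direction. By the ratio of averaged signals, 3 were over 2-fold higher (D10938exon_s_at, X67108_at and U25650_f_at) and 2 over 2-fold lower, against 8.89% and 4.18% of all. Both GFP+ arrays lay above both GFP+/- arrays in 7 of the 15 and below them in 2, against 30.4% and 15.4% of all probe sets. The median log2 difference was 0.32, against 0.13 over all probe sets. Scaled to equal medians, the median over all became -0.03, and the probe sets over 2-fold numbered 601 higher and 505 lower instead of 777 and 365. The direction of the 15 stayed as given under equal medians and under quantile normalization except for rc_AI030286_s_at of *Bdnf* (-0.10 and -0.09) and S62933_i_at of *Ntrk3* (-0.02 under quantile normalization). In GFP+/- against NT cells the near-zero differences of M55293_at and S60953_s_at turned positive under equal medians, the first also under quantile normalization.

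Against the NT array the counts were as follows. In GFP+ cells limma called 0 of the 15 after adjustment, against 4.38% of all probe sets higher and 4.06% lower. Its unadjusted p was under 0.05 for S76758_i_at, which was higher, and for 3 others, which were lower, against 12.9% and 11.4% of all probe sets. Over 2-fold, 2 of the 15 were higher (S76758_i_at and S71196mRNA_s_at) and 4 lower, against 14.5% and 12.3% of all. In GFP+/- cells it called 0 higher and 1 lower (M55291_at), against 4.2% and 5.03% of all. Before adjustment 0 were higher and 4 lower at that limit, against 11.4% and 13.5%. Over 2-fold 0 were higher and 5 lower, against 12.1% and 15.2% of all. The median log2 difference of the 15 was -0.35 in GFP+ and -0.44 in GFP+/- cells, against 0.06 and -0.09 over all probe sets. Both of these comparisons use the same single NT array and are not independent.

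The genes nearest in profile to each of the 5 were looked up among 2333 other genes of the brightest 41%, by the root mean square distance of their 5 log2 signals, each centred on its mean. For *Ntrk2* they were neuronal: *Ina*, which encodes the neurofilament protein internexin (distance 0.06), and *Stmn4*, a stathmin of neurons that binds tubulin (0.08). *Ina* had signals of 1265 and 944 on the GFP+ arrays, 739 and 623 on the GFP+/- arrays and 2047 on NT. For *Ntf3* they were the RNA helicase *Dhx36* (0.17) and fibronectin *Fn1* (0.22), a matrix protein with 1113 and 1659 on the GFP+ arrays, 3044 and 3450.1 on the GFP+/- arrays and 1941 on NT. The nearest for *Bdnf* were *Eif2ak2*, a kinase activated by double-stranded RNA (0.13), and *Map4k4* (0.14), for *Ntrk3* *Ppard* (0.07) and *Serpina3n* (0.08), and for *Ngfr* *Acsl5* (0.20) and *Zmat3* (0.20). Profiles of 5 arrays are easily matched: within a distance of 0.3 there were 121 genes for *Bdnf*, 12 for *Ntf3*, 123 for *Ntrk2*, 369 for *Ntrk3* and 40 for *Ngfr*.

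**Figure D3:**
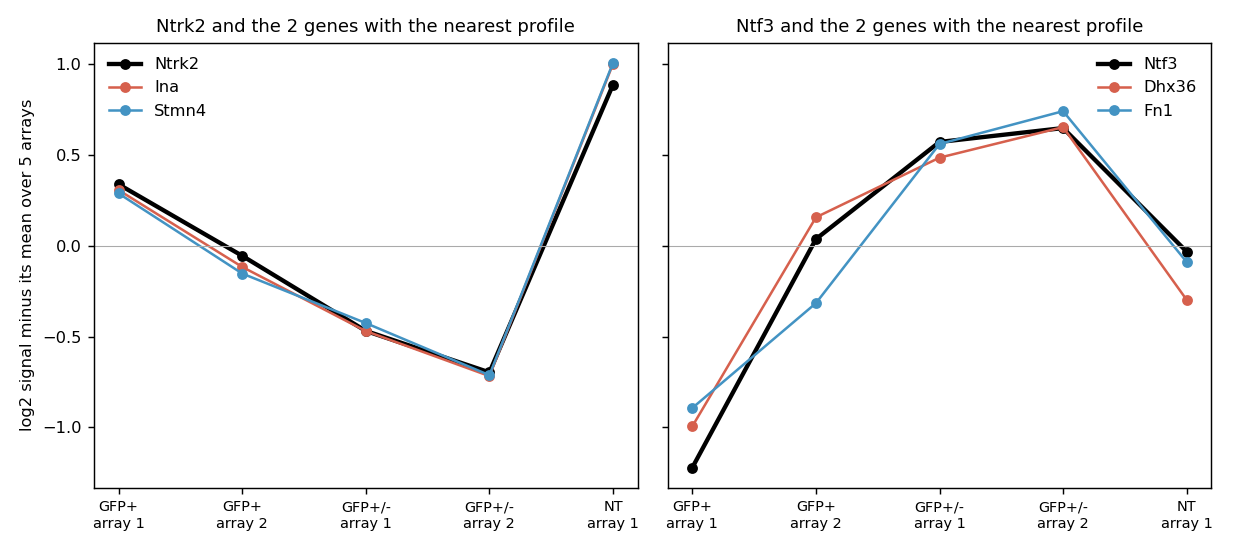
Log2 signal minus its mean over the 5 arrays for Ntrk2 with Ina and Stmn4 (left) and for Ntf3 with Dhx36 and Fn1 (right), with 1 point per array and gene and lines that only join the points of a gene. Ntrk2, Ina and Stmn4 are highest on the NT array and lowest on the GFP+/- arrays, and Ntf3, Dhx36 and Fn1 are highest on the GFP+/- arrays.

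Fibroblast and matrix markers had, like *Ntf3*, their lower signals in sorted cells. Summed over the 14 listed markers, their signal was 20005 and 29045 on the GFP+ arrays, 56143 and 55367 on the GFP+/- arrays and 25917 on NT, and both GFP+ arrays lay below both GFP+/- arrays in 12 of the 14, against 15.4% of all probe sets. Their median log2 difference in GFP+ against GFP+/- cells was -1.18 against 0.13 over all probe sets, with 0 past the adjusted threshold while 11 were lower at an unadjusted p under 0.05, against 4.75% of all. GFP+ array 1, the lower of the GFP+ arrays for *Ntf3* M34643_at (108 against 257), was also the lower for the sum of the markers. The dim *Ntf3* probe set E03082cds_s_at did not share this, with 7.41 on GFP+ array 1 and 6.50 on GFP+ array 2. Its NT signal of 48 lay between its GFP+/- arrays, while NT lay between the GFP+ arrays for the sum. Among the markers, *Sparc* and *Timp1* were also higher on GFP+ array 1. Endothelial and mural markers, 8 of 11 with a probe set, had a median log2 difference of 0.10 in GFP+ against GFP+/- cells, with 0 past the adjusted threshold. At an unadjusted p under 0.05, 2 were lower, the smooth muscle genes *Acta2* and *Tagln*, against 4.75% of all. These 2 carried the sum of the list, which was 2173 and 3951 on the GFP+ arrays, 9193 and 11435 on the GFP+/- arrays and 1781 on NT. The part of these cells in the *Ntf3* difference was not tested. Of the astrocyte markers, 10 of 12 had a probe set, and *Gfap* and *Sox9* had none of their own. Their median log2 difference in GFP+ against GFP+/- cells was -0.06, with 0 past the adjusted threshold. At an unadjusted p under 0.05, 1 was higher (*Aldh1l1*, 1.47) and 1 lower (*Aldoc*, -0.50), against 9.15% and 4.75% of all probe sets. The part of astrocytes in the differences of the 5 genes was not tested.

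The other ligands and receptors of the family could hardly be seen. Of the 14 listed, 3 had a probe set of their own. *Sort1*, which encodes sortilin, the co-receptor of p75 for uncut neurotrophins, had 82.2 and 69.7 on the GFP+ arrays, 118 and 151 on the GFP+/- arrays and 54.2 on NT. Unlike *Ngfr*, it had both GFP+ arrays below both GFP+/- arrays (log2 difference -0.82, SE 0.34, adjusted p = 0.362), while its second, dimmer probe set gave 0.68 (adjusted p = 0.59). *Ntf4*, a second ligand of TrkB, was dim, with 31.0 and 36.0 on the GFP+ arrays, 21.6 and 23.3 on the GFP+/- arrays and 52.2 on NT (log2 difference from GFP+/- 0.58, adjusted p = 0.622), and the p75-binding *Bex3* overlapped between GFP+ and GFP+/- cells (0.07, adjusted p = 0.933). None of the 3 passed the adjusted threshold in any comparison.

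Of the enzymes that cut or release mature neurotrophin, 12 of 15 had a probe set. *Mmp9*, a matrix protease known to cut the BDNF precursor, had 200 and 543 on the GFP+ arrays, 822 and 958 on the GFP+/- arrays and 46.2 on NT. It was higher than in NT in both populations, with log2 differences of 2.83 in GFP+ (SE 0.58, adjusted p = 0.0435) and 4.26 in GFP+/- cells (SE 0.58, adjusted p = 0.0173), and -1.43 in GFP+ against GFP+/- cells (adjusted p = 0.286). No other enzyme of the list passed by its brightest probe set. That made 1 of the 12 higher than NT in each population, against 4.38% of all probe sets in GFP+ and 4.2% in GFP+/- cells. A dimmer probe set of *Furin* was also higher than in NT (2.02 in GFP+, adjusted p = 0.0215, and 2.09 in GFP+/- cells, adjusted p = 0.0198). For *Furin*, *Plat*, which encodes the plasmin activator tPA, and *Pcsk2* the log2 differences of GFP+ from GFP+/- cells were -0.40, 0.43 and -0.22 (adjusted p between 0.538 and 0.701). The list had a median of 0.16 there, with *Mmp9* alone, lower, at an unadjusted p under 0.05, against 4.75% of all probe sets.

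Downstream of the Trk receptors no listed gene passed the adjusted threshold between sorted and unsorted cells. Among adaptors, Ras and MAP kinases, 16 of 36 had a probe set, and in GFP+ against GFP+/- cells their median log2 difference was 0.18, with 2 higher (*Sos1* and *Sh2b1*) at an unadjusted p under 0.05. Of all probe sets, 9.15% were higher at that limit. The guanine exchange factor *Sos1*, which loads Ras, had 0.63 (adjusted p = 0.221) and the adaptor *Sh2b1* 0.67 (adjusted p = 0.321). *Sh2b2* had 0.25 and *Nras* 0.33. *Rap1b*, a small GTPase, was the only one of the list past the threshold against NT, lower in GFP+ (log2 difference -1.16, adjusted p = 0.032) and in GFP+/- cells (-1.30, adjusted p = 0.0243). Of all probe sets, 4.06% were lower than NT after adjustment in GFP+ and 5.03% in GFP+/- cells.

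In the branches of PI3 kinase, phospholipase C-gamma and CREB, 25 of 28 had a probe set, with a median log2 difference of 0.10 in GFP+ against GFP+/- cells, 0 past the adjusted threshold and 2 higher at an unadjusted p under 0.05. The share of all probe sets higher at that limit was 9.15%. *Mtor*, the growth kinase, had 855 and 991 on the GFP+ arrays, 532 and 521 on the GFP+/- arrays and 1128 on NT, an order of populations like that of *Ntrk2*. Its log2 difference was 0.81 in GFP+ against GFP+/- (adjusted p = 0.164) and -1.10 in GFP+/- against NT cells (adjusted p = 0.0335). *Pdpk1* had 0.87 (adjusted p = 0.372), *Pik3cd* 0.48 (adjusted p = 0.386) and *Prkcd* -0.55 (adjusted p = 0.364) in GFP+ against GFP+/- cells. Against NT, 3 of the 25 were higher after adjustment in GFP+ cells, against 4.38% of all probe sets. In GFP+/- cells 2 were higher and 2 lower, against 4.2% and 5.03% of all. *Gsk3b* and *Bad*, which encode targets that the kinase Akt inhibits, were higher than NT in both populations (*Gsk3b* 2.02 and 2.31, *Bad* 1.12 and 1.15 in GFP+ and GFP+/- cells). *Plcg2* was higher in GFP+ cells (2.5) and *Camk2d* lower in GFP+/- cells (-1.12). Adjusted p-values of these were between 0.0152 and 0.0452. The second *Gsk3b* probe set also passed in both (2.06 and 2.01). That of *Bad* gave 0.45 (adjusted p = 0.64) and 0.39 (adjusted p = 0.684) and did not.

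Of p75 signalling, 9 of 24 had a probe set. In GFP+ against GFP+/- cells their median log2 difference was 0.30, with 0 past the adjusted threshold. At an unadjusted p under 0.05, 1 was higher, against 9.15% of all probe sets. Against NT, 3 of the 9 were higher after adjustment in GFP+ and 1 in GFP+/- cells, against 4.38% and 4.2% of all. *Nfkbia*, the inhibitor that NF-kappaB itself induces, had 1171 and 1021 on the GFP+ arrays, 662 and 753 on the GFP+/- arrays and 183 on NT, with log2 differences from NT of 2.58 in GFP+ (SE 0.22, adjusted p = 0.00808) and 1.94 in GFP+/- cells (SE 0.22, adjusted p = 0.0136). Its second probe set gave 2.53 in GFP+ (adjusted p = 0.0688) and 1.43 in GFP+/- cells (adjusted p = 0.239) and did not pass. *Nfkb1* was higher than NT in GFP+ cells (1.48, adjusted p = 0.0332), and so was *Jun*, a target of the JNK branch (1.23, adjusted p = 0.0341). In GFP+/- cells these had 1.02 (adjusted p = 0.0772) and 0.83 (adjusted p = 0.0844). Other *Jun* probe sets gave 1.32, 0.72 and 0.66 in GFP+ against NT cells and did not pass (adjusted p between 0.0772 and 0.582). *Mapk9*, a JNK gene, had -1.14 against NT in GFP+ (adjusted p = 0.102) and -1.44 in GFP+/- cells (adjusted p = 0.056).

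Transcripts known to respond to BDNF, 18 of 20 with a probe set, included several that were higher than NT. *Fos*, an immediate early gene, had 2687 and 2227 on the GFP+ arrays, 1093 and 944 on the GFP+/- arrays and 287 on NT, so that each population stood apart. Its log2 differences were 1.27 in GFP+ against GFP+/- (SE 0.18, adjusted p = 0.132), 3.09 in GFP+ against NT (SE 0.22, adjusted p = 0.00808) and 1.82 in GFP+/- against NT cells (SE 0.22, adjusted p = 0.0149). In GFP+ against NT cells 5 of the list were higher after adjustment (*Fos*, *Junb*, *Egr1*, *Nr4a1* and *Dusp6*) and none lower, against 4.38% of all probe sets higher, and in GFP+/- against NT cells 3 were (*Fos*, *Junb* and *Egr1*), against 4.2% of all. In GFP+ against GFP+/- cells 0 passed and 5 were higher at an unadjusted p under 0.05, against 9.15% of all probe sets, at a median of 0.23. *Nr4a1*, an orphan nuclear receptor, had 0.95 there (adjusted p = 0.212), *Nptx2*, a synaptic pentraxin, 0.94 (adjusted p = 0.16), and the neuropeptide *Npy* 0.86 (adjusted p = 0.224). Dimmer probe sets of *Junb* (-0.06), *Nr4a1* (0.30), *Dusp6* (0.27) and *Egr1* (-0.39 to 1.14) did not pass in GFP+ against NT cells. Many of these genes answer to other stimuli too, and the list is no measure of BDNF.

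The sister system of GDNF and CNTF receptors, 10 of 14 with a probe set, held 2 genes that differed from NT. After adjustment 1 of the 10 was lower in GFP+ and 2 were lower in GFP+/- cells, against 4.06% and 5.03% of all probe sets. *Ret*, which encodes the signalling receptor of GDNF, was lower in GFP+ (log2 difference -1.86, adjusted p = 0.0309) and in GFP+/- cells (-1.89, adjusted p = 0.0282), though its other probe sets gave 0.74 and -0.38 in GFP+ cells and did not pass. *Gfra1*, its co-receptor, had 222 and 207 on the GFP+ arrays, 118 and 91.7 on the GFP+/- arrays and 320.4 on NT, lower than NT in GFP+/- (-1.62, adjusted p = 0.036) and 1.05 higher on the log2 scale in GFP+ against GFP+/- cells without passing (adjusted p = 0.202), while its second probe set gave 0.07 in GFP+/- against NT cells (adjusted p = 0.96). *Gfra2* had 0.30, *Cntfr* -0.93 and *Lif* 1.15 in GFP+ against GFP+/- cells (adjusted p between 0.42 and 0.64). There 0 of the list passed, with 1 higher at an unadjusted p under 0.05, against 9.15% of all probe sets. All calls against NT in the pathway and marker lists rest on a spread that the fit takes from all 4 transfected arrays. Over all probe sets, nearly all of the 738 calls in GFP+ against NT cells were lost without any 1 of these arrays. That includes the GFP+/- arrays, which are not in that comparison and whose removal leaves its log2 differences unchanged. Nearly all of the 807 calls in GFP+/- against NT cells were lost without either GFP+/- array. Hardly any of the genes named can therefore have passed in those fits.

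**Figure D4:**
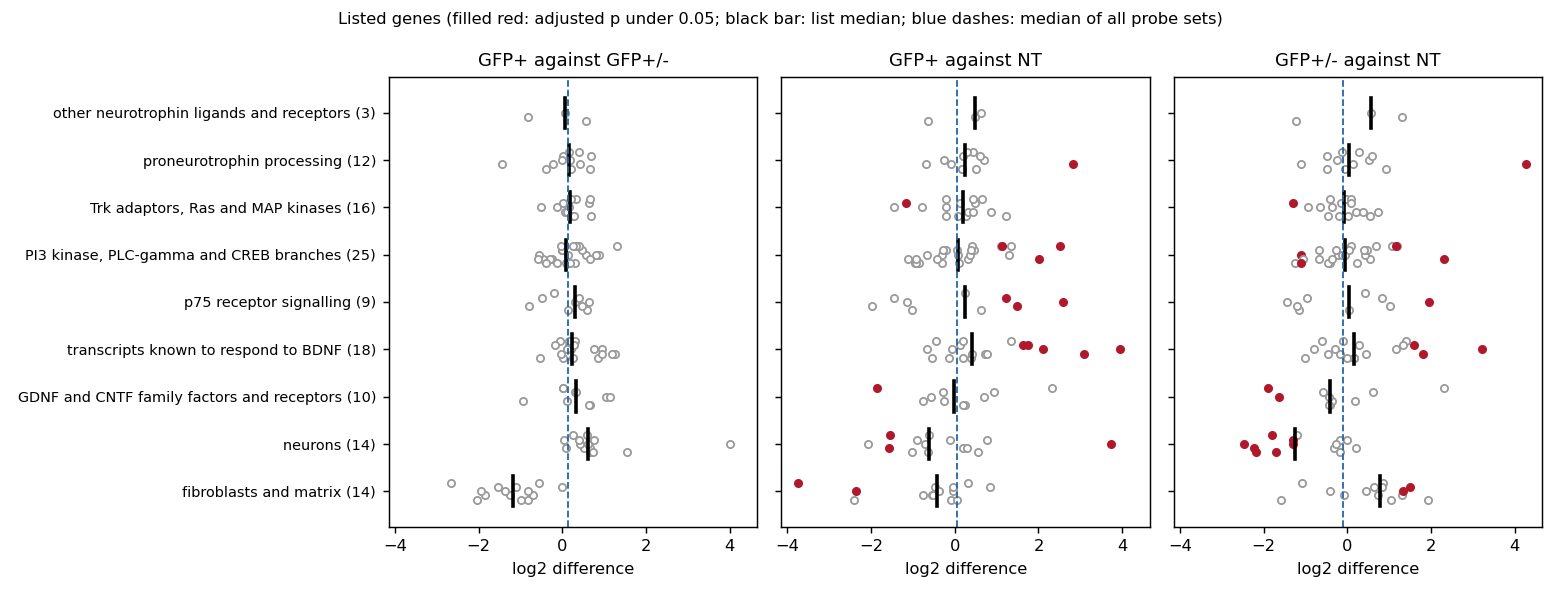
Log2 difference of each listed gene, read from its brightest probe set, for GFP+ against GFP+/- (left), GFP+ against NT (middle) and GFP+/- against NT cells (right). Red points have an adjusted p under 0.05, black bars are list medians, and the blue dashed line is the median of all probe sets. No red point lies in the left panel, where neurons centre at 0.60 and fibroblasts and matrix at -1.18.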

How the data were processed

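RNA of 3 populations had been hybridised to 5 rat oligonucleotide arrays of Affymetrix. The authors summarised each probe set with MAS 5.0 and deposited it as a signal, a linear intensity. The detection calls and detection p-values of the table were not used, and 0 value columns were left unmapped to a sample. Of 8799 probe sets, 59 controls were left out. The platform annotation gave 1 gene symbol for 7006 of the other 8740, several for 308 and none for 1426, and 6985 of the single symbols had a gene ID in the RefSeq table of GRCr8, used for names only. Signals under 1 were set to 1 and log2 was taken, without a filter.

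R 4.3.3 with limma 3.58.1 fitted 1 mean per population to all 5 arrays, with an intensity trend in the prior variance and Benjamini-Hochberg adjustment over the 8740 probe sets. The fit was tested on simulated data. The ratio of averaged signals, at 2-fold, is the measure of the study's methods. Python 3.11.15, numpy 2.4.6, pandas 2.3.3 and matplotlib 3.10.9 made the tables and plots.

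The 5 genes and all gene lists were chosen with earlier results of these data known. Every probe set of the 5 genes is named, with the 2 genes nearest in profile to each and up to 4 genes of each pathway list with the largest ratio in GFP+ against GFP+/- cells, taken from the brightest 41% first and from dimmer genes only where fewer than 4 were that bright. Genes of a list past the adjusted threshold against NT cells, and the markers named, were added after their values were seen. The brightest probe set stood for each listed gene. Arrays carry no depth, so their number limits the precision.

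Alternatives changed the scaling (quantile normalization, equal medians), the floor (16 added instead), the probe sets tested (the brightest 41%), the variance prior (no trend) and the arrays (without NT, a replicate block, or with any GFP+ or GFP+/- array left out). For lists, probe sets of a gene were also averaged.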

Additional observations from a re-analysis of the deposited data

How the results depend on the processing

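Over 45 differences of the 15 probe sets, 383 of 408 values under an alternative kept their direction and side of the threshold. Many of these values could not change direction. The prior, the brightest 41%, the replicate block and the removal of arrays outside a comparison leave its log2 difference as it was. Nearly all of the 45 were also not called to begin with, so the count is no measure of robustness. The call of *Ntrk2* M55291_at in GFP+/- against NT cells was lost with a prior without a trend (log2 difference -1.47, adjusted p = 0.117) and with an array left out (-1.58 to -1.35), and *Bdnf* S76758_i_at in GFP+ against NT cells was called among the brightest 41% (1.04, adjusted p = 0.0467). With 16 added to each signal, *Bdnf* S71201mRNA_at was called lower than NT in GFP+ (-1.21) and in GFP+/- cells (-1.30). In GFP+ against GFP+/- cells, rc_AI030286_s_at turned to -0.087 under quantile normalization and -0.099 under equal medians, and S62933_i_at to -0.021 under quantile normalization. In GFP+/- against NT cells, M55293_at turned to 0.070 under quantile normalization and 0.068 under equal medians, and S60953_s_at to 0.035 under equal medians.

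With arrays left out in turn, values that changed sign spanned in GFP+ against GFP+/- cells -0.054 to 0.69 (S76758_i_at), -0.077 to 0.19 (rc_AI030286_s_at), -0.70 to 0.0003 (S76799_at) and -0.001 to 0.47 (S71201mRNA_at). In GFP+ against NT cells they spanned -1.19 to 0.069 (M34643_at) and -0.042 to 0.41 (X05137_at). In GFP+/- against NT cells they spanned -0.47 to 0.58 (S71196mRNA_s_at), -1.16 to 0.23 (E03082cds_s_at), -0.34 to 0.25 (M55293_at) and -0.37 to 0.21 (S60953_s_at). The largest of these differences with all arrays was 0.56 in size, and the cause was not tested.

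Over all probe sets, adjusted calls among the brightest 41% numbered 144 for GFP+ against GFP+/- and 1133 for GFP+ against NT cells, and 180 and 883 were over 2-fold there, with 914 in GFP+/- against NT cells. Adding 16 left 486 over 2-fold for GFP+ against GFP+/-. A prior without a trend left 2 calls in each comparison with NT. With arrays left out, calls were 1 in GFP+ against NT and 1 to 333 in GFP+/- against NT cells. The replicate block gave 2 calls in GFP+ against GFP+/- cells, 1 each way, and none among the 15. The labels' numbers were not shown to pair the arrays, since the deviations of same-numbered arrays correlated at 0.063 (0.197 among the brightest 41%). Of 45 list medians, 14 moved when all probe sets of a gene were averaged.

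Of the 15 probe sets, 9 were outside the brightest 41%, where arrays of a population differed most, and the spread rests on 2 arrays in each of 2 populations. In GFP+ against GFP+/- cells, the smallest adjusted p of the 15 under any alternative was 0.0821.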
